A study of Mus musculus with 32 samples.

Results

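The genes described here are 10 genes listed as feedback inhibitors of the ERK pathway, taken by gene symbol from the expression table of mouse retina. They are the phosphatase genes Dusp1, Dusp4 and Dusp6, the Sprouty genes Spry1, Spry2 and Spry4, the Sprouty-related genes Spred1 and Spred2, and the immediate early response genes Ier2 and Ier3. The name does not hold for all 10, since the IER3 protein prolongs rather than shortens ERK activity in some cells. All 10 were found among 26629 named entries. Retinas came from female C57 BL/6J mice that were 16 weeks old at the start and 21 weeks old by the labels at collection. The spaceflight mice had spent 37 days in flight and were frozen on orbit, and their retinas were dissected from the thawed carcasses on the ground. The ground control mice were of the same strain, sex and age and were kept in the same kind of habitat. They were killed and frozen at the same time in the same way, and their eyes were likewise taken from thawed carcasses. No altered allele or drug is named for either group, and each library came from 1 mouse. RNA was read in 9 spaceflight and 7 ground control libraries, and DNA methylation, by reduced representation bisulfite sequencing (RRBS), in 8 spaceflight and 8 ground control libraries.

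Growth factor receptors pass their signal through RAS, RAF and MEK to the kinase ERK, which enters the nucleus and switches on genes within minutes. Among these genes are brakes on the pathway itself. DUSP proteins remove the phosphates that activate ERK and related kinases, Sprouty and SPRED proteins act higher up, between the receptor and RAF, and their transcripts are widely used as a readout of how strongly the pathway is running. In the retina the pathway is best known in Müller glia, which activate ERK after injury, and in the control of lens and retinal growth by fibroblast growth factors.

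The stretches before the starts of 3 of these genes are shown first, because the methylation values further on were read in them. Dusp1 varied most between libraries in RNA, Dusp6 the largest log2 decrease of the 10 genes, and Spry2 the smallest p. Each run holds the 250 bases before the start, 5′ to 3′ on the gene's own strand, from RefSeq on GRCm38.p6, and the capitals mark the CpGs that were read at least 10 times in all 16 DNA libraries.
Dusp1, chr17:26508473-26508722, minus strand: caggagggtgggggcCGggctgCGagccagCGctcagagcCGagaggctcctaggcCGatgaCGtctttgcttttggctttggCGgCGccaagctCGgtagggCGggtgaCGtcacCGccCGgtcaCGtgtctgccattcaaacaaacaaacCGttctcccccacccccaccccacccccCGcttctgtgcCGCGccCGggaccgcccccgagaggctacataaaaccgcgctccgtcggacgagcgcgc
Dusp6, chr10:99262981-99263230, plus strand: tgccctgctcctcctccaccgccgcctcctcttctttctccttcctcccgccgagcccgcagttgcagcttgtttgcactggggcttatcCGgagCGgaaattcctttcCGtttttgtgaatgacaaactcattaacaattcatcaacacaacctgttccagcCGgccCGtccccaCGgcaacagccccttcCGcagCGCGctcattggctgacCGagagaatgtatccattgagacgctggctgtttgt
Spry2, chr14:105896820-105897069, minus strand: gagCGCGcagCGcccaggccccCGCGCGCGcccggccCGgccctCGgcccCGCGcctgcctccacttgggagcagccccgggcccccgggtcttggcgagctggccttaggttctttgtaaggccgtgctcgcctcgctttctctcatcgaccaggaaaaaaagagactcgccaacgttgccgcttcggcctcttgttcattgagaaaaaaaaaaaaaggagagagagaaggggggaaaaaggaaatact

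RefSeq windows of 300 bases, from 250 before to 50 after the start, were matched for 7 of the 10 genes (Dusp1, Dusp6, Spry1, Spry2, Spred1, Spred2 and Ier3). Letters were searched on both strands of them and of the first window of each of 27025 genes. The cAMP response element TGACGTCA stood in the Dusp1 window, 143 bases before the start, and in 1.88% of all windows. The shorter form TGACG, which the full element contains, was also found 191 bases before the start of Dusp1 and 51 bases before that of Spred2, and in 21% of all windows. The ETS core CCGGAA was found in the Spry2 window, after the start, and in 15.2% of all windows. The AP-1 letters TGACTCA, the TATA letters TATAAA and the CArG box were in none of the 7 windows, and in 5.17%, 14.2% and 1.57% of all windows.

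Expression is given in FPKM, a fragment count divided by transcript length and by library depth, which allows levels to be compared between genes. The table gives no read counts per gene, so the number of fragments behind each FPKM was not known from it. All 10 genes were above 1 FPKM in each of the 16 RNA libraries. By the mean over all libraries, Ier3 (27.9 FPKM) and Spry2 (27.01 FPKM) were highest, followed by Dusp4 (23.2 FPKM), Spred1 (14.9 FPKM), Dusp6 (14.8 FPKM), Dusp1 (12.4 FPKM), Spred2 (7.12 FPKM), Spry1 (6.13 FPKM), Ier2 (4.52 FPKM) and Spry4 (2.95 FPKM). Among the 12460 genes with at least 1 FPKM in every library, Ier3 ranked at the 78.7th percentile and Spry4 at the 8.68th. Ier3 exceeded Spry2 in 9 of 16 libraries and Spred1 exceeded Dusp6 in 11 of 16, with mean log2 differences of 0.04 ± 0.27 and 0.05 ± 0.51 (SD, n = 16), so neither pair differed beyond its spread. Spry2 over Dusp4 (0.26 ± 0.30) and Dusp6 over Dusp1 (0.27 ± 0.67) also had mean differences smaller than the SD. The same held for Spred2 over Spry1 (0.25 ± 0.41) and Spry1 over Ier2 (0.43 ± 0.53). Dusp4 over Spred1 held in 15 of 16 libraries, Dusp1 over Spred2 in 16 of 16 and Ier2 over Spry4 in 14 of 16. The spread also set the genes apart, with a coefficient of variation over all libraries of 13.9% for Spry2 and 38.5% for Dusp1.

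**Figure D1:**
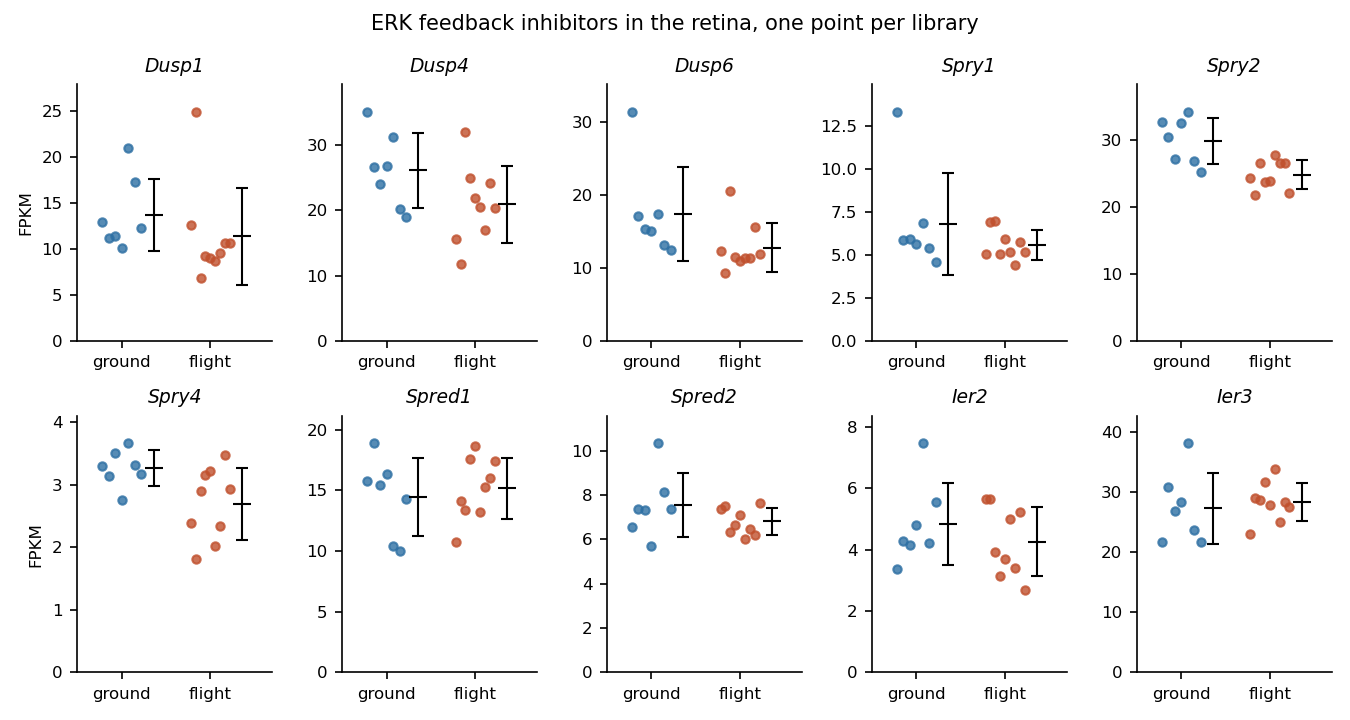
FPKM of the 10 genes in 7 ground control (blue) and 9 spaceflight (red) RNA libraries, 1 point per library, with the mean and SD as bars and each axis starting at 0. Groups overlapped for every gene, and single libraries stood apart for Dusp1 (24.9 FPKM), Dusp6 (31.4 FPKM) and Spry1 (13.3 FPKM).

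Some libraries held RNA of tissues next to the retina, and their values stand beside the results below. The rod marker sum, over 5 genes, ran from 12241 to 26996 FPKM in spaceflight and from 16575 to 26046 FPKM in ground control libraries, so every library carried retinal RNA. Summed lens markers (6 genes, 3 of them at 0 in some library) were at 32005 FPKM in ground control library M31 and 20922 FPKM in spaceflight library M22, against a median of 47.5 FPKM in spaceflight and 202 FPKM in ground control libraries. Corneal epithelium markers reached 1951 FPKM in spaceflight library M21, and pigment epithelium markers 8019 FPKM in M31 and 5391 FPKM in spaceflight library M23. The condition label of M21 says ground control while its source name says flight, and it was counted as spaceflight. Over all tested genes, the highest correlation with any other library was 0.958 to 0.968 for M21, M22, M31, M32 and M40 and 0.982 to 0.992 for the rest.

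The comparison of spaceflight with ground control libraries asked whether the RNA of the 10 genes differs after flight. The 10 genes were chosen with earlier results of these data known, so the counts below are not independent of these data. The median change of the 10 genes was −0.23 on the log2(FPKM + 0.1) scale, against −0.01 for all genes tested. Of the 10, 8 were lower after spaceflight, where 51.7% of all genes were. None of the 10 was called at a fold change of 1.2, an unadjusted p of 0.05 and a Benjamini-Hochberg adjusted p of 0.3 in limma, a rule that called 0.193% of all genes. At the same fold and an unadjusted p of 0.05 alone, Dusp6 and Spry4 were lower, 2 of 10 genes against 3.21% of all genes, and none was higher against 4.3%. With M21 taken as ground control, as its condition label has it, neither passed and 1.95% of all genes were lower. On leaving out 1 library the count of members ran from 0 to 4. It was 0 without M31 or M40, where 6.01% and 1.41% of all genes were lower, and 4 without M23 or M36, where 3.93% and 3.5% were. With no fold required, 3 of 10 (Dusp6, Spry2 and Spry4) were lower at an unadjusted p of 0.05, against 5.45% of all genes. In bulk retina, fewer cells of a type and less RNA per cell cannot be told apart.

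The Müller glia marker sum lay lower in most spaceflight libraries. Over all 5 markers, none at 0 in any library, it ran from 611 to 1090 FPKM (median 825) in spaceflight and from 870 to 1510 FPKM (median 927) in ground control libraries. Of the spaceflight libraries, 6 of 9 (M21, M25, M26, M27, M29 and M30) lay below the lowest ground control library. M29 did so only just, at 869.5 FPKM against 869.8 FPKM in M33. Of all the marker lists examined, this one had the most spaceflight libraries below the ground control range, and no other had more than 2. For the epidermis markers, 4 of 9 spaceflight libraries lay above the highest ground control library. Glul, which encodes glutamine synthetase, was the highest of the 5 markers in every library. It had a log2 change of −0.27 ± 0.11 (SE, unadjusted p = 0.0240, limma adjusted p = 0.388). Rlbp1 (−0.31), Vim (−0.19) and Slc1a3 (−0.02) were lower and Aqp4 (0.28) was higher, none of them past the unadjusted threshold. The part of Müller glia in the values of the 10 genes was not tested.

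**Figure D2:**
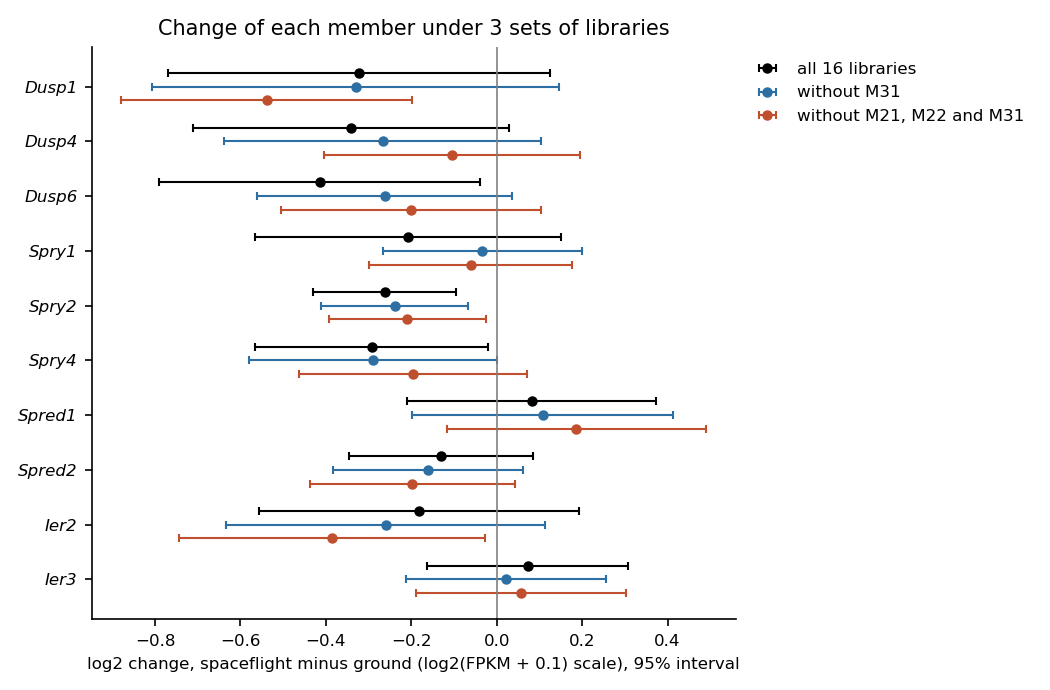
Log2 change of each gene, spaceflight minus ground control, with its 95% interval from limma, for all 16 libraries (black), without M31 (blue) and without M21, M22 and M31 (red). The Spry2 interval lay below 0 in all 3 sets, and Dusp6 moved from −0.41 to −0.26 when M31 was left out.

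Dusp6 encodes the cytoplasmic phosphatase specific to ERK. It ran from 9.25 to 20.6 FPKM (median 11.4) in spaceflight and from 12.4 to 31.4 FPKM (median 15.3) in ground control libraries. In all, 7 of 9 spaceflight libraries lay below the lowest ground control library, yet M23 lay above all ground control libraries but M31, so the groups overlapped. Dusp6 differed by −0.41 ± 0.18 (log2 change ± SE, 95% interval −0.79 to −0.04, n = 9 and 7, unadjusted p = 0.0322, limma adjusted p = 0.410). M31, at 31.4 FPKM, stood well above the next ground control library at 17.4 FPKM. Without M31 the change was −0.26 (unadjusted p = 0.0807, limma adjusted p = 0.350), in a fit that called no member but 11.1% of all genes. The unadjusted threshold was also missed without M22 (−0.36), M25 (−0.39) or M40 (−0.40), and with M21 as ground control (−0.36, unadjusted p = 0.0645, limma adjusted p = 0.633).

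Dusp4 encodes a nuclear phosphatase of ERK and of JNK. It ran from 11.9 to 32.02 FPKM (median 20.5) in spaceflight and from 18.9 to 35.1 FPKM (median 26.7) in ground control libraries. In all, 8 of 9 spaceflight libraries lay below the ground control median, with M23 as the exception. The log2 change was −0.34 ± 0.18 (SE, limma adjusted p = 0.469, n = 9 and 7), and −0.10 without M21, M22 and M31, a set chosen after the data were seen. Without M23, M32 or M36 it was −0.42, −0.40 and −0.41, past the unadjusted threshold.

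Dusp1 encodes an inducible nuclear phosphatase of p38, JNK and ERK. It ran from 6.82 to 24.9 FPKM (median 9.60) in spaceflight and from 10.1 to 20.9 FPKM (median 12.3) in ground control libraries. Of the spaceflight libraries, 5 of 9 lay below every ground control library, while M22, at 24.9 FPKM, lay above every one of them and the next spaceflight library was at 12.6 FPKM. With all libraries the log2 change was −0.32 ± 0.21 (SE, limma adjusted p = 0.544, n = 9 and 7). Without M22 it was −0.48 ± 0.15 (limma adjusted p = 0.298), and Dusp1 passed the rule for a call, which 2.77% of all genes did in that fit, and 4.08% were lower at the unadjusted p and fold. Without M21, M22 and M31 it was −0.54 ± 0.16 (limma adjusted p = 0.288), again past the rule, as were 6.4% of all genes. M22 had the highest epidermis marker sum (855 FPKM, against at most 133 FPKM in any other library) and a skeletal muscle sum of 142 FPKM. Their part in its Dusp1 value was not tested.

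Spry2 encodes a Sprouty protein that blocks the step from receptor to RAS and RAF. It ran from 21.7 to 27.8 FPKM (median 24.3) in spaceflight and from 25.2 to 34.2 FPKM (median 30.5) in ground control libraries. All 9 spaceflight libraries lay below the ground control median, and 4 of 7 ground control libraries lay above every spaceflight library, although the ranges overlapped. The log2 change was −0.26 ± 0.08 (SE, 95% interval −0.43 to −0.09, unadjusted p = 0.00418, limma adjusted p = 0.343), which fell just short of the fold of 1.2 and of the adjusted threshold. Across 26 other settings it stayed between −0.30 and −0.21, and 8 of them carried it past the fold with the unadjusted p.

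Spry4, a Sprouty protein that also restrains RAF, was the lowest of the 10 transcripts. It ran from 1.81 to 3.48 FPKM (median 2.90) in spaceflight and from 2.76 to 3.66 FPKM (median 3.30) in ground control libraries. Of the spaceflight libraries, 4 (M21, M22, M26 and M27) lay below all ground control libraries, and the other 5 lay among them. The log2 change was −0.29 ± 0.13 (SE, 95% interval −0.57 to −0.02, unadjusted p = 0.0369, limma adjusted p = 0.425), and it became −0.20 (unadjusted p = 0.140) without M21, M22 and M31. Leaving out M21, M22, M26, M27, M31, M32, M34 or M40 alone put it at −0.29 to −0.23, with the unadjusted p between 0.0502 and 0.0699 in limma. With M21 as ground control it was −0.22 (unadjusted p = 0.123, limma adjusted p = 0.643).

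Spry1, which encodes a Sprouty protein of the same kind as SPRY2, ran from 4.40 to 6.97 FPKM (median 5.18) in spaceflight and from 4.57 to 13.3 FPKM (median 5.86) in ground control libraries. M31, at 13.3 FPKM, was far above the next ground control library at 6.87 FPKM. The log2 change was −0.21 ± 0.17 (SE, limma adjusted p = 0.623), and without M31 it was −0.03 ± 0.11.

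Spred1 and Spred2 encode membrane proteins that bring neurofibromin, a RAS inhibitor, to the membrane. Spred1 ran from 10.8 to 18.6 FPKM (median 15.3) in spaceflight and from 10.03 to 18.9 FPKM (median 15.5) in ground control libraries, nearly the same range. Its log2 change was 0.08 ± 0.14 (SE, 95% interval −0.21 to 0.37, limma adjusted p = 0.824). Spred2 ran from 6.00 to 7.62 FPKM (median 6.66) in spaceflight and from 5.68 to 10.3 FPKM (median 7.37) in ground control libraries, with the ground control range reaching past the spaceflight range at both ends. Its log2 change was −0.13 ± 0.10 (SE, 95% interval −0.35 to 0.08, limma adjusted p = 0.607).

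Ier2 and Ier3 are immediate early genes, and the IER3 protein prolongs rather than shortens ERK activity in some cells. Ier2 ran from 2.70 to 5.66 FPKM (median 3.92) in spaceflight and from 3.37 to 7.46 FPKM (median 4.27) in ground control libraries, with M40 highest. Its log2 change was −0.18 ± 0.18 (SE, limma adjusted p = 0.678). Without M21, M22 and M31 it was −0.39 ± 0.17 (unadjusted p = 0.0361, limma adjusted p = 0.309), which made 2 of 10 genes lower with Dusp1, against 5.4% of all genes in that fit. Ier3 ran from 23.1 to 33.9 FPKM (median 28.4) in spaceflight and from 21.7 to 38.1 FPKM (median 26.8) in ground control libraries. Its log2 change was 0.07 ± 0.11 (SE, 95% interval −0.16 to 0.31, limma adjusted p = 0.808).

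The highest ground control values fell on 3 libraries. M40 was the highest ground control library for 6 genes (Dusp1, Spry2, Spry4, Spred2, Ier2 and Ier3), M31 for Dusp4, Dusp6 and Spry1, and M33 for Spred1. In spaceflight the highest values were spread over 7 of 9 libraries and the lowest over 6. M23 was the highest spaceflight library for these same 3 genes, and M31 and M23 also had the highest sums of their groups for pigment epithelium, Müller glia (1510 and 1090 FPKM) and microglia (55.6 and 27.2 FPKM). M36 was the lowest ground control library for Dusp4, Dusp6, Spry1 and Spry2. M22 was the lowest spaceflight library for Dusp4, Dusp6, Spry2 and Spry4, and its pigment epithelium sum, at 853 FPKM, was the lowest of all libraries. The part of these cell types in the values was not tested.

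**Figure D3:**
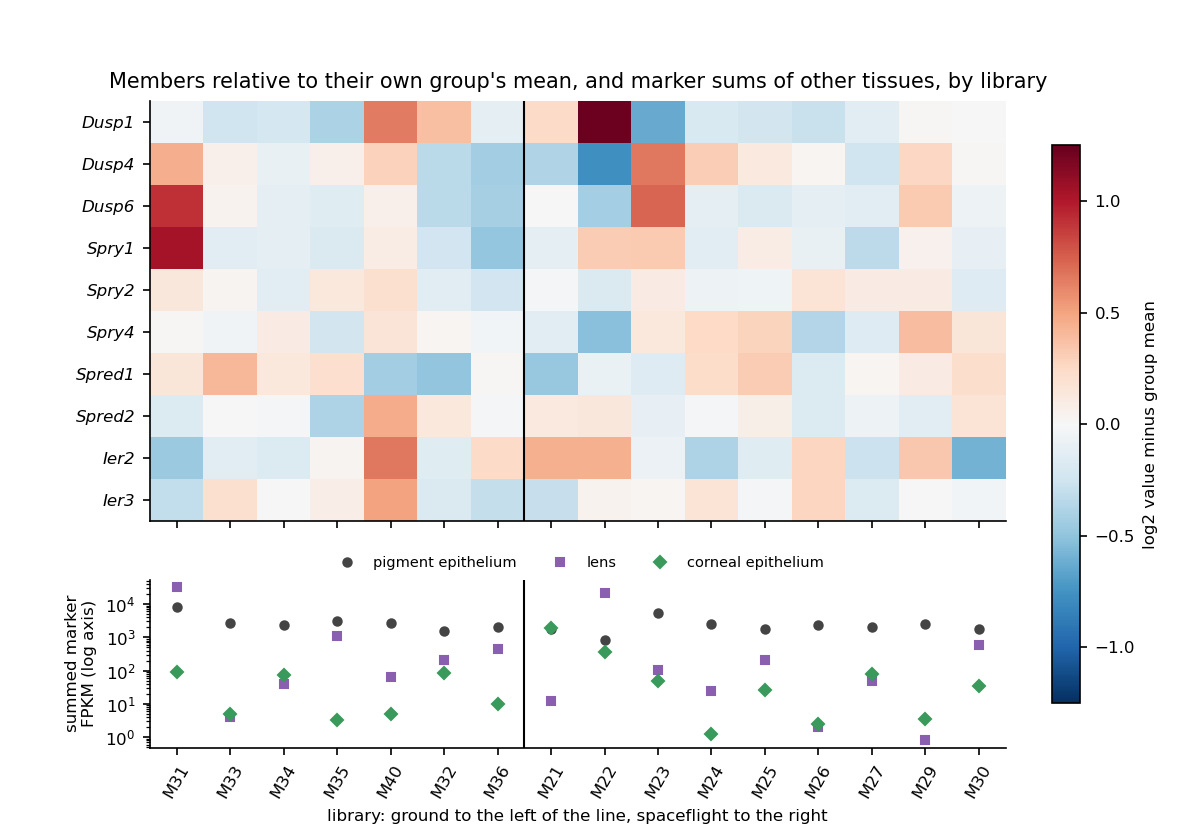
Above, each gene's log2(FPKM + 0.1) minus the mean of its own group, by library, on a scale from blue (lower) to red (higher). Below, summed FPKM of pigment epithelium, lens and corneal epithelium markers on a log axis. M31 and M23 were high for Dusp4 and Dusp6, M22 was high for Dusp1 and low for Dusp4, and M40 was above its group mean for 9 of 10 genes.

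The genes were also compared from library to library. After each group's mean was removed, the median Pearson r of the 45 gene pairs over 16 libraries was 0.06, with 27 pairs above 0, and without M31 it was 0.19, with 30 pairs above 0. Dusp4 with Dusp6 had the highest r (0.78, and 0.80 without M31), and Dusp6 with Spry1 fell from 0.75 to 0.50 without M31. Dusp1 with Spred2 stood at 0.65, and Dusp1 with Dusp4 at −0.58. Genes of a library share its depth and its mix of tissues, so these values describe the libraries and carry no test. The 8 other genes whose centred values lay nearest to the mean of the 10 were Cox6a1 (r = 0.92), Dnajc15 (r = 0.91), Cops7a (r = 0.88), Cox8a and Ndufab1 (both r = 0.85), Mrps7, Edf1 and Atp5j2 (all r = 0.84). Cox6a1, Cox8a, Ndufab1 and Atp5j2 encode parts of the mitochondrial respiratory chain and ATP synthase, and Mrps7 a protein of the mitochondrial ribosome.

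Other genes of the pathway were taken from 5 lists, which were written with earlier results of these data known. The counts from them, those of the response targets included, are therefore not independent of these data. Of its ligands 10 of 14 genes could be tested and of its receptors 9 of 16, and none of either passed the unadjusted p of 0.05 with a fold of 1.2. Of 30 core genes from adaptors to kinases, 2 were higher at the unadjusted threshold and none was called. Rps6ka3, which encodes an RSK kinase, was 1 of them, with a log2 change of 0.30 ± 0.13 (SE, limma adjusted p = 0.424), and the median of the 30 was −0.04. Of 19 genes listed as other inhibitors, 2 were lower at the unadjusted threshold. They were Ier5l (−0.61 ± 0.18, limma adjusted p = 0.329) and the phosphatase gene Dusp3 (−0.27 ± 0.13, limma adjusted p = 0.436). Rasa2, which encodes a RAS inhibitor, was higher at that threshold (0.33 ± 0.14, limma adjusted p = 0.410).

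The list of response targets held genes that ERK and its transcription factors switch on, and also such factors themselves (Elk1, Elk3, Elk4 and Srf). Its median change was −0.23, with 18 of 23 below 0. At the unadjusted threshold 5 of 23 were lower and none higher, beside 3.21% and 4.3% of all genes. The nuclear receptor gene Nr4a1 fell from 22.5 ± 10.9 to 11.4 ± 2.69 FPKM (SD, n = 7 and 9), a log2 change of −0.90 ± 0.20 (SE, limma adjusted p = 0.293), and was the one call under the rule in the 5 lists. Srf, which encodes the serum response factor, was at 10.1 ± 1.69 FPKM in ground control and 8.02 ± 0.889 FPKM in spaceflight libraries, a log2 change of −0.32 ± 0.10 (SE, limma adjusted p = 0.345). The immediate early transcription factor gene Egr1 was at 60.5 ± 30.9 and 31.8 ± 16.8 FPKM, a log2 change of −0.88 ± 0.30 (SE, limma adjusted p = 0.347). Fos and Jund were the other 2 at the unadjusted threshold, with changes of −0.66 and −0.31. Single libraries moved the count over all 5 lists, from 10 genes in all to 17 without M31, 5 without M40 and 4 without M32. The share of all genes at that threshold in either direction moved likewise, from 7.51% to 11.3%, 4.39% and 4.52%. Egr1, Fos and Nr4a1 remained lower at the unadjusted threshold in each of these 3 fits. Nr4a1 stayed lower at the unadjusted threshold in all 26 alternatives, at −1.03 to −0.71, but it was not called in 16 of them, among them the fit with M21 as ground control (−0.73, limma adjusted p = 0.633).

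**Figure D4:**
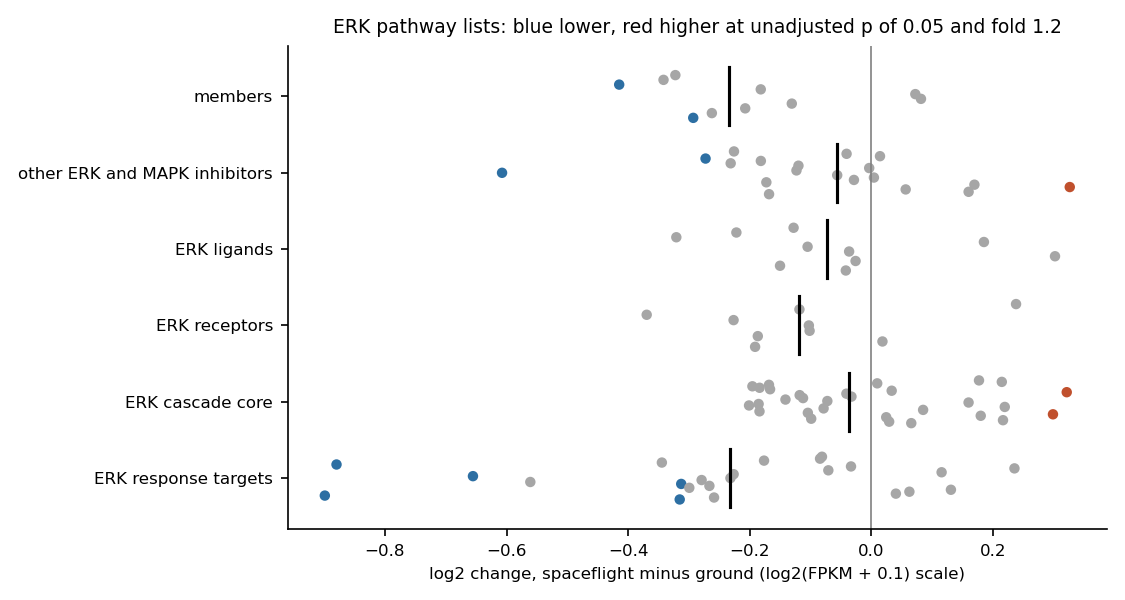
Log2 change, spaceflight minus ground control, of the 10 genes and of the tested genes of the 5 pathway lists. Each point is 1 gene, and a bar marks the median of each list. Blue and red points passed an unadjusted p of 0.05 and a fold of 1.2 downward and upward: Dusp6 and Spry4 among the 10, 5 response targets and 2 other inhibitors downward, and 2 core genes and 1 other inhibitor upward.

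DNA methylation was a second readout of the same genes, mostly in the same mice. RRBS cuts DNA at CCGG and so reads mostly CpG-rich stretches, and the spaceflight and ground control DNA libraries held 1071432 CpGs with at least 10 reads in all 16 after the strands were added. Of these, 1114 lay at the 10 genes, from 5000 bases before each start to the end of the gene, with 40 (Ier3) to 227 (Spred2) per gene and a median of 42 to 68 reads per library and CpG. Around the starts, within 1000 bases, 9 of 10 genes were almost free of methylation. Group means there ran from 0.253% (Spry2 in spaceflight) to 0.852% (Ier3 in spaceflight), beside a median of 0.594% over 15679 genes. Spry4 was the exception, at 4.57% ± 0.855 in spaceflight and 4.32% ± 0.506 in ground control libraries (SD, n = 8 each).

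No start region of the 10 genes differed between the groups at an unadjusted p of 0.05 in an exact two-sided permutation test over all 12870 arrangements of the labels, a level that 4.92% of genes reached. After adjustment over all genes, 0% were called. The smallest p was that of Dusp4, at 0.635% ± 0.0914 in spaceflight and 0.539% ± 0.0973 in ground control libraries (SD, n = 8 each, exact permutation p = 0.0618, adjusted p = 0.966). Ier2 came next at 0.844% ± 0.104 and 0.638% ± 0.293 (exact permutation p = 0.0819, adjusted p = 0.986). Dusp6, which was lower in RNA, stood at 0.586% ± 0.1996 and 0.663% ± 0.171 (exact permutation p = 0.417, adjusted p = 1), and Spry2 at 0.253% ± 0.0938 and 0.269% ± 0.120 (exact permutation p = 0.766, adjusted p = 1). Differences between the groups were at most 0.251 percentage points (Spry4), so that in the printed stretches the capitals stand for CpGs with almost no methylated reads. In the 250 bases before Dusp1, 19 of 28 CpGs were read in all libraries and the highest group mean of any of them was 1.63%. The CpG inside the cAMP response element, at chr17:26508611, was at 0% in all 8 spaceflight libraries and at 0% to 2.70% in ground control libraries, with 30 to 71 reads each. Before Dusp6, 10 of 16 CpGs were read, none with a group mean above 1.89%, and before Spry2 11 of 23, none above 0.83%.

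**Figure D5:**
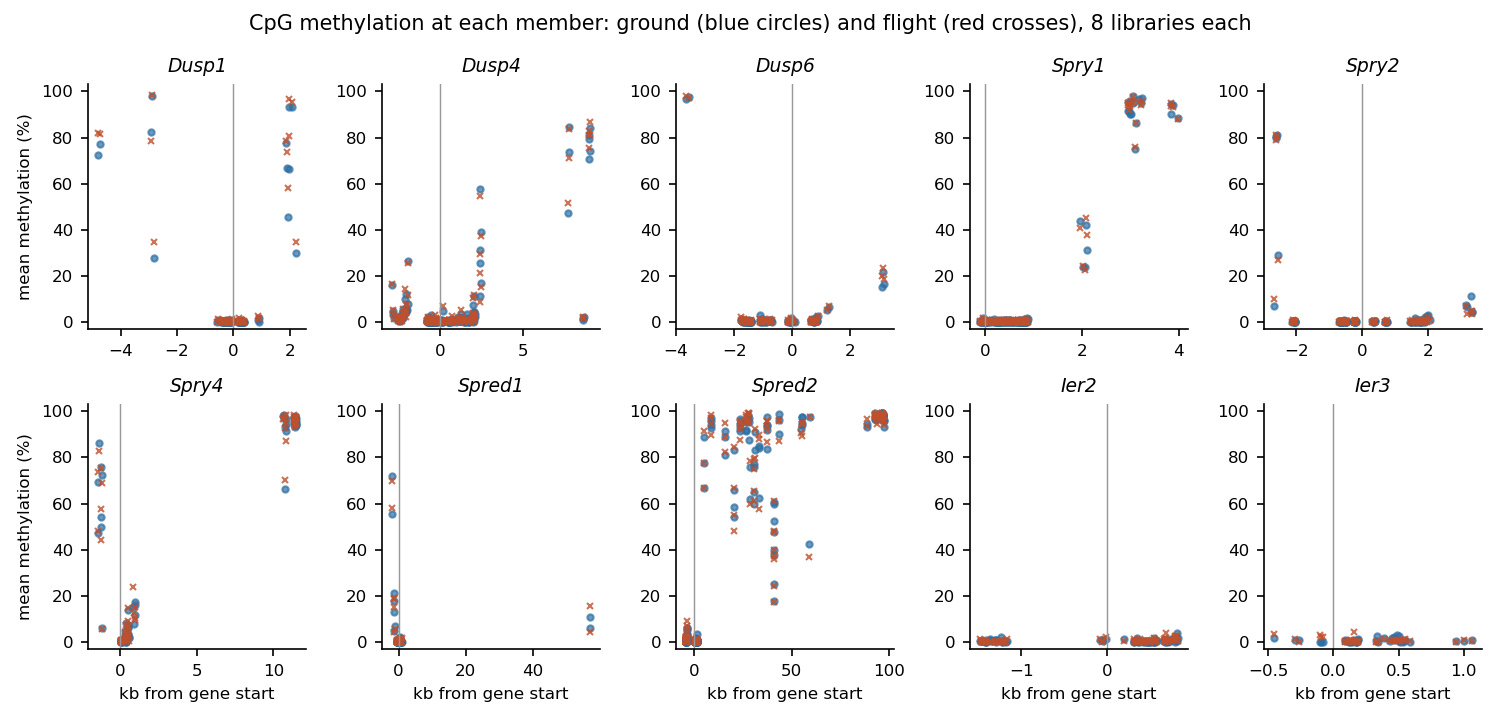
Mean methylation in percent of each CpG read at least 10 times in all libraries, against its distance from the gene start in kilobases, for 8 ground control (blue circles) and 8 spaceflight (red crosses) DNA libraries. CpGs near the starts lay near 0%, and highly methylated CpGs lay inside Spry1, Spry4 and Spred2 and at the ends of Dusp1 and Dusp4.

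Single CpGs away from the starts varied more. No CpG at these genes was called at an adjusted p of 0.05 with a difference of 10 percentage points, nor was any in the genome (0%). At an unadjusted p of 0.05 with 10 points, 3 of 1114 passed (0.269%), beside 0.188% of all CpGs, with 1 lower (beside 0.107%) and 2 higher (beside 0.081%). The first was the CpG with the smallest p of its gene, and the other 2 were named after their values had been seen. They are shown with 20 bases to either side, on the gene's strand, with the CpG in capitals.
Dusp1, chr17:26506473-26506514, minus strand, coding part of exon 4 of 4: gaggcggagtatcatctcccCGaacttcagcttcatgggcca
Dusp1, chr17:26506517-26506558, minus strand, coding part of exon 4 of 4: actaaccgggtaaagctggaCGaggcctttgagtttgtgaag
Spred2, chr11:19965347-19965388, plus strand, intron: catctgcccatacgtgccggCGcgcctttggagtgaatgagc

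The first Dusp1 CpG, 1979 bases after the start, ran from 71.0% to 86.7% (median 82.7%) in spaceflight and from 56.8% to 78.4% (median 65.3%) in ground control libraries. Of the spaceflight libraries, 6 of 8 lay above every ground control library. The pooled reads gave 81.2% and 67.0%, a difference of 14.1 points (logistic regression with overdispersion, unadjusted p = 0.00205, adjusted p = 0.865), with 14 to 56 reads per library. The second, 44 bases away, was at 58.0% ± 9.11 and 45.6% ± 11.6 (SD, n = 8 each), and it no longer passed in 12 of the 16 fits that left out 1 library. The Spred2 CpG, in the intron 40925 bases after the start, ran from 28.3% to 58.7% (median 49.7%) in spaceflight and from 34.4% to 70.1% (median 62.2%) in ground control libraries. In all, 6 of 8 ground control libraries lay above every spaceflight library, and M31 was the lowest of its group. The pooled difference was −14.2 points (logistic regression with overdispersion, unadjusted p = 0.0164, adjusted p = 0.865). The neighbouring CpGs, 3 bases before and 2 bases after it, were at 35.8% and 61.0% in spaceflight and at 39.9% and 59.7% in ground control libraries.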

How the data were processed

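Retinal RNA of 16 mice and retinal DNA of 16 mice were compared between spaceflight and ground control. The deposited FPKM are per gene and came from Cufflinks, after RNA reads had been trimmed (Trimmomatic) and aligned (TopHat2) to GRCm38. The authors aligned RRBS reads to GRCm38 with Bismark after trimming and removal of PCR duplicates, and deposited a read count and the percent methylated and unmethylated for each CpG cytosine and strand. The members and gene lists were chosen with earlier results of these data known.

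Columns were matched to libraries through the library code in each description, which the study's list of sequencing reads links to a mouse number. The 2 columns of mice with no RNA library here were not used. The labels number the mice of 6 ground control RNA libraries otherwise than the study's list of sequencing reads does; the column names were followed. A row with no gene name (up to 0.388% of a library's FPKM) was left out. Values were tested as log2(FPKM + 0.1), which understates changes of low genes, with limma 3.58.1 in R 4.3.3 over genes with at least 1 FPKM in every library. Calls took the study's thresholds of 1.2-fold, p of 0.05 and adjusted p of 0.3.

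For methylation the strands were added, methylated reads were rounded from the percents, and CpGs of autosomes and X with at least 10 reads in all 16 libraries were kept, all of which read CG in GRCm38.p6. Each was fitted by logistic regression on group with a Pearson overdispersion factor not under 1 and an F-test. Means within 1000 bp of the starts of genes with at least 5 such CpGs were compared by an exact permutation test. P-values were adjusted by Benjamini-Hochberg over all genes or CpGs. Reads over CpG cytosines numbered 59505986 to 105181872 per DNA library. The scripts were tested on simulated data. Named were all 10 genes, up to 3 genes per direction and pathway list at p of 0.05 and 1.2-fold, the 8 genes nearest the members' mean, and each gene's CpG of smallest p if it reached 0.05 and 10 points. Alternatives changed the pseudocount, filter, scaling, eye, trend, label of M21, coverage minimum, window and the libraries included. The values of 1 gene of the pathway lists are not reported here.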

Additional observations from a re-analysis of the deposited data

Results flagged for a closer look

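Of 46 sets of values examined (each gene's FPKM, its methylation around the start and the 3 named CpGs, in each group), 8 held a library whose gap to the nearest other, relative to the range of its group, was above Dixon's 95% limit. For independent, normally distributed values chance gives this in about 1 in 20 sets. Percents near 0 and sets that share libraries do not meet these conditions, so the count cannot be set against that rate. In RNA these were spaceflight library M22 for Dusp1 (24.9 FPKM, the next at 12.6), ground control library M31 for Dusp6 (31.4 FPKM, the next at 17.4) and M31 for Spry1 (13.3 FPKM, the next at 6.87). M22 and M31 were also the libraries with the highest lens marker sums of their groups. In DNA they were spaceflight libraries M29 for Dusp1 (1.02%, the next at 0.478%), M21 for Dusp6 (1.03%, the next at 0.660%), M22 for Spred1 (0.539%, the next at 0.362%) and M23 for Ier3 (2.53%, the next at 0.897%), all around the start, and ground control library M31 for the Spred2 CpG (34.4%, the next at 57.9%). No difference between effects in separate subgroups was tested, since the study has 1 contrast.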

How the results depend on the processing

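Of the 10 genes, 9 kept their direction under all 26 alternatives to the main expression comparison, and Spred1 ran from −0.00034 (without M32) to 0.15 on leaving out 1 library. The count of called members was 0 throughout except 1 (Dusp1) without M22 and 1 (Dusp1) without M21, M22 and M31, a set added after the data were seen; leaving out 1 library gave 0 to 1. Members at an unadjusted p of 0.05 with the fold numbered 2 in the main fit. The count was 1 with a pseudocount of 1 and 3 with one of 0.01, where 2.87% and 3.25% of all genes were lower. With M21 as ground control it was 0, where 1.95% were lower. On leaving out 1 library it ran from 0 to 4 (0 without M31 or M40, where 6.01% and 1.41% of all genes were lower, and 4 without M23 or M36, where 3.93% and 3.5% were). With any fold the members numbered 3, but 1 with M21 as ground control and 1 to 4 on leaving out 1 library (1 without M31 or M40). The share of all genes lower at any fold was taken only in the main fit (5.45%). Pathway genes at the unadjusted p with the fold numbered 10 in the main fit. They numbered 13 with M21 as ground control, where 4.57% of all genes passed in either direction. With a pseudocount of 1, quantile normalization or eye as a covariate they numbered 9, where 5.91%, 6.85% and 7.24% passed. Without M21, M22 and M31 they numbered 19, where 11.1% passed, and leaving out 1 library gave 4 to 17. No start region or CpG of the genes was called under any alternative. Start regions at an unadjusted p of 0.05 numbered 0, but 2 at a coverage minimum of 20 (Dusp4 and Ier3), 2 from summed reads (Dusp4 and Ier2) and 0 to 1 on leaving out 1 library. CpGs at 10 points and that p numbered 3, but 1 (Spred2) at a coverage minimum of 20, where the Dusp1 CpGs were not tested, and 2 to 4 on leaving out 1 library. Shares over all start regions (4.92%) and all CpGs (0.188%) were taken only in the main setting. The counts under the alternatives therefore cannot be set against a share. Small start-region differences changed sign: Ier3 to −0.366 points at a minimum of 20, −0.0291 at 5 and −0.169 from summed reads, Spred2 to 0.0220 from summed reads, Spry1 to −0.0066 at a minimum of 5, and, within 200 bp, Dusp6 to 0.126 and Spry4 to −0.164. On leaving out 1 library, these differences ran from −0.158 to 0.146 points for Ier3, −0.0480 to 0.0255 for Spred1, −0.0340 to 0.0286 for Spred2, −0.00134 to 0.0425 for Spry1 and −0.0459 to 0.0137 for Spry2. The cause of these shifts was not tested. No paired analysis was possible because spaceflight and ground control mice share no numbers. FPKM carry no fragment counts, and the counting error of RNA values was not estimated, although the study lists the sequencing reads of each library. At 14 to 83 reads per library the named CpGs carry a counting error of their own.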
